A study of Mus musculus with 6 samples.

Results

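The transcripts described here come from the mitochondrial genome, the small circular DNA that mitochondria keep apart from the nuclear chromosomes. They were taken as every row of the deposited files whose symbol starts with mt-, which gave 37 genes of 48401 rows, 13 for messenger RNA (mRNA), 2 for ribosomal RNA (rRNA) and 22 for transfer RNA (tRNA). Each library was bulk RNA-seq of total RNA from L4/5 dorsal root ganglia (DRG), which hold the cell bodies of sensory neurons, in C57BL/6J males aged 8 weeks. One group of 3 libraries came from mice given siCLAP, a small interfering RNA (siRNA) directed at the lincRNA CLAP, a long intergenic noncoding RNA, and the other group of 3 from mice given siNC, taken here as the control siRNA. Both siRNAs were given intrathecally, that is, into the spinal fluid. Dose, time after injection and whether a library is 1 mouse or a pool are not stated in the labels, so a p-value describes the spread among these 6 libraries and nothing wider. No row carries the name CLAP, and its level was not analysed here.

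Mitochondrial DNA encodes core subunits of the respiratory chain, which moves electrons and pumps protons, and of the ATP synthase that uses the proton gradient. Both of its strands are transcribed into long precursors, and the tRNAs that lie between most of the other genes mark where the precursor is cut. Sensory neurons depend on this machinery along long axons. Stretches of mitochondrial DNA have also been copied into nuclear chromosomes during evolution, and such copies can share sequence with the genes they came from.

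A large nuclear copy bears on how the levels below can be read. In the GENCODE M21 annotation of GRCm38 (mm10), 7 unprocessed pseudogenes at chr1:24611535-24616197 on the minus strand matched mitochondrial genes from position 6390 to position 11042 of the mitochondrial genome, in the same order. In 5 of the 6 intervals between neighbouring pseudogenes, the distance on chromosome 1 equalled that on mitochondrial DNA. The genes mt-Co2, mt-Atp6, mt-Co3, mt-Nd3 and mt-Nd4l matched over 99.0% to 99.9% of their length. In 4 of these matches, the one of mt-Nd3 apart, identity was 100%. The match of mt-Nd3 to Gm28438 held 1 difference, T3C, counted from the first base of the gene with the mitochondrial base first. The matched parts of mt-Co1 and mt-Nd4 were 31.3% and 63.6% of their lengths, the first with 1 difference (A1066T, to Gm29216) and the second with identity of 100%. Another copy, on chromosome 2, was less alike. Its mt-Co2 counterpart Gm13341 had an identity of 95.9%, with 16 mismatched bases, against 0 for Gm28661 on chromosome 1. The 3 sequences below show the window of 60 bases (chrM:7457-7516) with the most differences to the chromosome 2 copy; they are shown because a short read from here can be told from one copy and not from the other. Capitals mark the 6 positions where the chromosome 2 copy differs.
mt-Co2, chrM:7457-7516, plus strand: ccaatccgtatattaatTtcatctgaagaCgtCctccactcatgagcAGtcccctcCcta
Gm28661, chr1:24615062-24615121, minus strand: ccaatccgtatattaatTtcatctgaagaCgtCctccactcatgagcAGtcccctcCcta
Gm13341, chr2:22587471-22587530, minus strand: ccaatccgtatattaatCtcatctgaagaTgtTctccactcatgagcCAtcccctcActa

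The ATP synthase genes mt-Atp8 and mt-Atp6 overlap on the same strand, and 1 library stood apart in both of them. The whole of mt-Atp8 (chrM:7766-7969, plus strand) is given next because its end is shared. Capitals mark the 43 bases that also belong to mt-Atp6, a stretch that matched the pseudogene Gm10925 without a difference.
mt-Atp8: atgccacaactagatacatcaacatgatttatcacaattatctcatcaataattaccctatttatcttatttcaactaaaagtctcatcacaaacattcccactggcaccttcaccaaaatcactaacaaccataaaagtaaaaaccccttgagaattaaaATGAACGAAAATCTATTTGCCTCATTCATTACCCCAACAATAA
The rest of mt-Atp8 lies between 2 matched pseudogenes, at the same distance on chromosome 1, and was not compared because only annotated transcripts were searched. The annotation holds 9 overlapping pairs among the 37 genes, 6 on the same strand and 3 on opposite strands. Since the library kit does not mark strand, reads of genes that overlap on opposite strands, such as mt-Nd5 and mt-Nd6 over 14 bases, cannot be told apart there. Outside such overlaps too, counts of a gene, mt-Nd6 among them, can include precursor RNA of the opposite strand.

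Mitochondrial transcripts took 1.48%, 1.31% and 1.67% of all expected counts in siCLAP replicates 1 to 3, and 1.46%, 1.57% and 1.51% in siNC replicates 1 to 3, the order used for values per library throughout. The mean share was 1.49% ± 0.181 in siCLAP and 1.51% ± 0.0555 in siNC (SD, n = 3 each), and the groups overlapped. siCLAP held both the lowest and the highest library. In bulk tissue, fewer cells rich in mitochondria and less mitochondrial RNA per cell cannot be told apart. Of the mitochondrial counts, mRNA genes held 97.9% to 98.4% in every library, rRNA genes 0.700% to 1.05% and tRNA genes 0.892% to 1.06%.

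Messenger RNA genes made up 1.45%, 1.28% and 1.64% of all counts in the siCLAP libraries, against 1.43%, 1.53% and 1.48% in the siNC libraries. The rRNA genes made up 0.0142%, 0.0134% and 0.0117% in siCLAP and 0.0118%, 0.0165% and 0.0149% in siNC. For tRNA genes the shares were 0.0153%, 0.0133% and 0.0149% in siCLAP and 0.0150%, 0.0166% and 0.0146% in siNC. In none of the 3 classes did the groups separate. The differences, siCLAP minus siNC, were −0.0240, −0.00131 and −0.000908 percentage points for mRNA, rRNA and tRNA, each smaller than the pooled SD between libraries of a group (0.133, 0.00191 and 0.00105). As a share of TPM the tRNA difference, −0.0418 percentage points, exceeded its pooled SD of 0.0381. Without siCLAP-2, whose mRNA share was the lowest, the mRNA difference was 0.0641 percentage points, and without siCLAP-3, whose share was the highest, it was −0.117; it also turned positive, to 0.00196, without siNC-2.

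**Figure D1:**
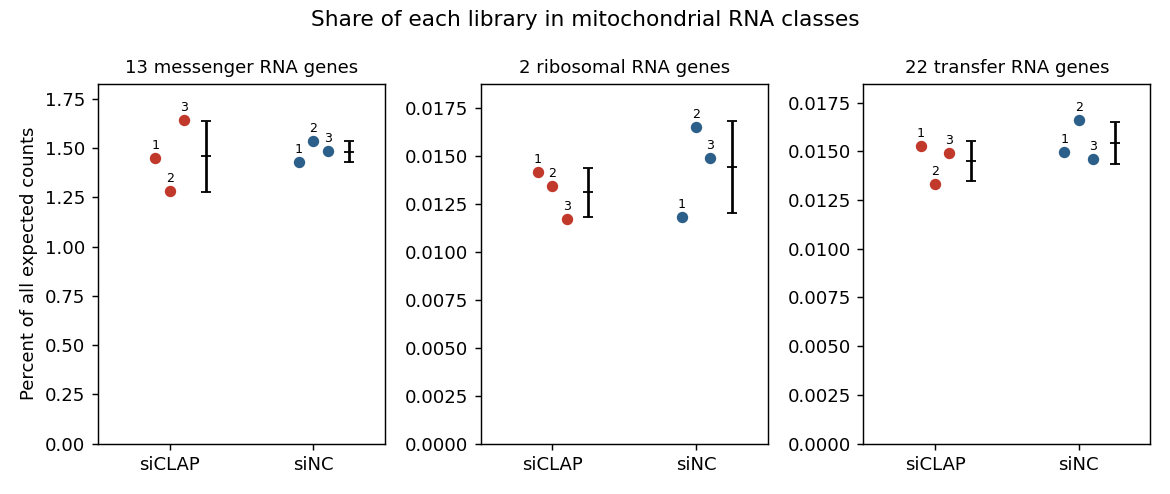
Percent of all expected counts (vertical axes, each starting at 0) in mitochondrial mRNA, rRNA and tRNA genes. Each numbered point is 1 library of siCLAP or siNC, the bar is the mean and the whiskers are 1 SD (n = 3). In the mRNA panel siCLAP-2 is lowest at 1.28% and siCLAP-3 highest at 1.64%, with all siNC libraries between them.

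Levels per gene are given in TPM, a length-scaled abundance used here to set mRNA and rRNA genes of a library side by side. The tRNA genes, at 59 to 75 bases, are compared in level only with each other. In siCLAP they held a mean of 0.0145% of counts but 0.546% of TPM, against 1.46% and 2.95% for mRNA genes. The lengths that the deposited counts and TPM imply, set relative to mt-Co1, were within 1% of the annotated lengths for 34 of 34 members for which they could be computed. The mRNA genes fell into 2 sets that did not meet. In the higher set, 7 genes averaged 1863 to 11607 TPM over the 6 libraries, and in the lower set 6 averaged 9.74 to 73.7 TPM. The lowest mean of the first set was 25.3 times the highest mean of the second, and 138 times without siCLAP-1, which alone carries the 73.7 TPM of mt-Atp8. The 6 low genes, mt-Co2, mt-Atp8, mt-Atp6, mt-Co3, mt-Nd3 and mt-Nd4l, were exactly the mRNA genes that lie whole inside the stretch copied on chromosome 1. Together they held 0.471% of mitochondrial counts in siCLAP-1 and 0.0742% to 0.108% in the other 5 libraries. How reads that match both places were counted is not given in the sources used here, and the part of such reads in these levels was not tested. Levels of these 6 genes, and the gap to the other 7, are therefore uncertain as measures of mitochondrial RNA. mt-Co1 and mt-Nd4, which match the copy on chromosome 1 in part, share this limit for the matched part. Less alike copies on other chromosomes matched 49.1% of mt-Nd2 (Gm13339, identity 96.7%), 100% of mt-Co1 (Gm13340, 97.6%) and 52.3% of mt-Nd5 (Gm4076, 95.2%). Gm13339 had 0 to 1 expected counts a library, and Gm4076 had 0 in every library.

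**Figure D2:**
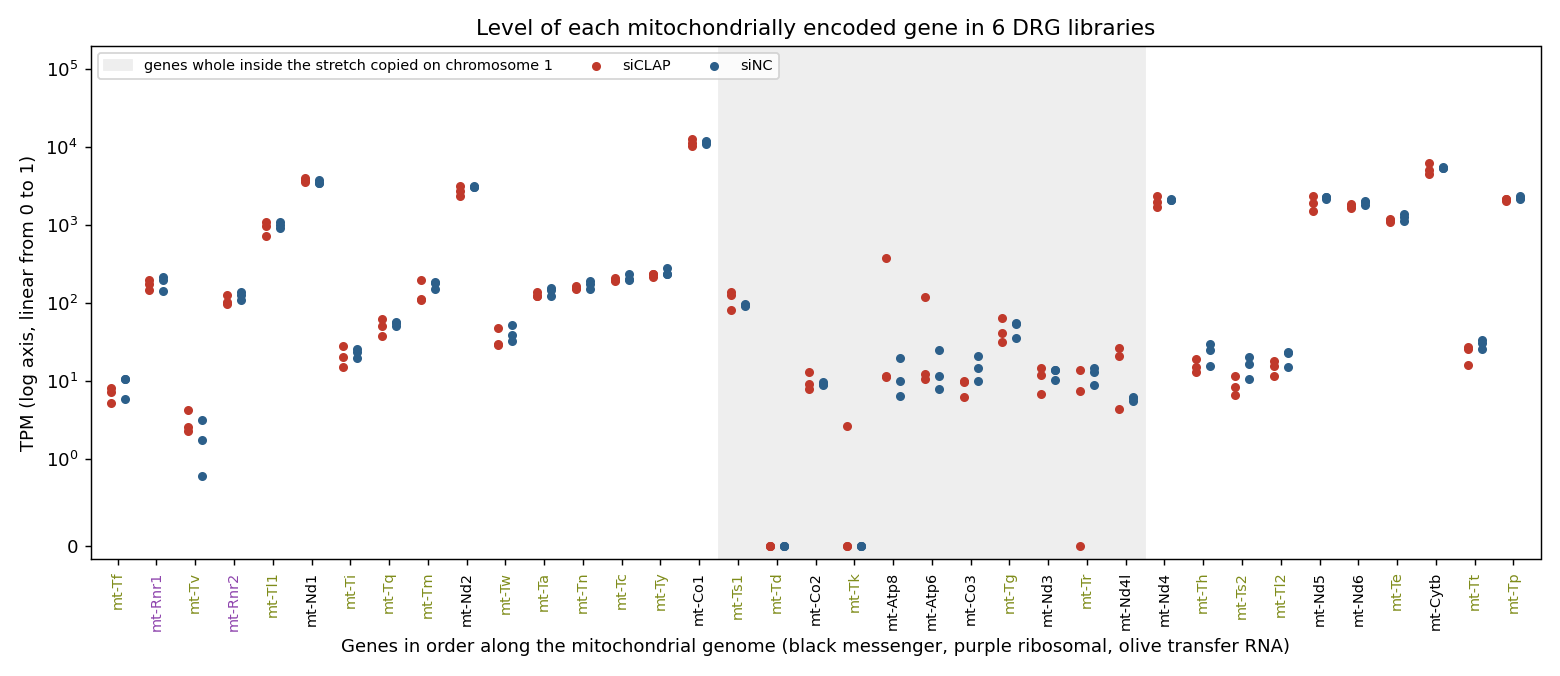
TPM of each of the 37 genes (vertical axis, logarithmic above 1 and linear from 0 to 1) in gene order along the mitochondrial genome, with 1 point per library, siCLAP to the left of siNC. The grey band marks genes that lie whole inside the stretch copied on chromosome 1, where mRNA genes average 9.74 to 73.7 TPM, against 1863 to 11607 TPM for mRNA genes outside the band.

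Among the abundant mRNAs, mt-Co1, the catalytic subunit of cytochrome c oxidase (complex IV), was the highest. It had 11517, 10349 and 12884 TPM in the siCLAP libraries and 11083, 11992 and 11816 TPM in the siNC libraries. It took 44.1% to 47.3% of mitochondrial counts. Next came mt-Cytb, cytochrome b of complex III, at 5178, 4504 and 6262 TPM in siCLAP, against 5373, 5528 and 5448 TPM in siNC. For both genes the siNC libraries lay inside the range of the siCLAP libraries.

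Subunits of complex I, the NADH dehydrogenase that feeds electrons into the chain, followed, 5 in number. mt-Nd1 had 3868, 3577 and 4087 TPM in siCLAP and 3483, 3777 and 3507 TPM in siNC, and mt-Nd2 had 2784, 2382 and 3237 TPM in siCLAP and 3171, 3142 and 3089 TPM in siNC. For mt-Nd5 the levels were 1929, 1520 and 2403 TPM in siCLAP and 2311, 2329 and 2185 TPM in siNC. mt-Nd4 had 2006, 1724 and 2353 TPM in siCLAP and 2119, 2133 and 2185 TPM in siNC. The groups overlapped in each of these 4 genes. mt-Nd6, the one mRNA gene encoded on the minus strand, had 1784, 1662 and 1877 TPM in siCLAP and 2036, 2004 and 1813 TPM in siNC, with siCLAP-3 above siNC-3 and the other siCLAP libraries below all of siNC.

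The order mt-Co1, mt-Cytb, mt-Nd1, mt-Nd2 held in 6 of 6 libraries, and each mean exceeded the next by more than the sum of their SDs. mt-Nd5 and mt-Nd4 did not differ beyond their spread (2113 ± 335 and 2087 ± 211 TPM, SD, n = 6), mt-Nd5 being higher in 4 of 6 libraries. mt-Nd4 was above mt-Nd6 in 6 of 6 libraries, though by less than the sum of their SDs. mt-Co1 and mt-Nd4 match the chromosome 1 copy over 31.3% and 63.6% of their lengths. Their levels, and so their places in this order, share in part the uncertainty of the low genes. siCLAP-2 had the lowest level in 6 of the 7, mt-Nd1 being the exception, and siCLAP-3 the highest in 6, mt-Nd6 being the exception. Both libraries are siCLAP, so in 5 of the 7 genes the siNC values lay inside the siCLAP range. Spread was least for mt-Nd1 (coefficient of variation 6.39% over 6 libraries) and widest for mt-Nd5 (15.9%).

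The comparison of siCLAP with siNC asked whether mitochondrial transcripts differ after the CLAP siRNA. Of the 37 genes, 35 had a mean TPM of at least 1 and were tested, mt-Td and mt-Tk being left out. In edgeR's quasi-likelihood test over 19141 genes with Benjamini-Hochberg adjustment, 0 of the 35 passed an adjusted p of 0.05, beside 0.293% of all genes tested. At an unadjusted p under 0.05 there were 3 of 35 (mt-Atp8, mt-Co3 and mt-Nd4l), beside 17.0% of all genes tested. DESeq2 called 0 of the 35, beside 611 of all 19141 genes tested. It had 4 at an unadjusted p under 0.05, beside 2487 of all genes, but gave no adjusted p for 17 of the 35. limma on log2(TPM + 0.5) called 0 of all 19141 genes, so its 0 among the members tells nothing about them. At an unadjusted p under 0.05 it had 2 members, beside 3028 of all genes tested. With no filter on low values, edgeR's test called 4 members, beside 2.75% of the 30347 genes then tested. They were mt-Atp8, mt-Atp6 and mt-Nd4l, higher in siCLAP (adjusted p = 0.000312, 0.0139 and 0.00502, edgeR), and mt-Co3, lower (adjusted p = 0.0155). The median log2 fold change of the 35 was −0.12, and 27 estimates were below 0, beside a median of −0.00 and 50.5% below 0 over all genes tested. The members are cut from shared precursors and measured in the same libraries, so their signs are not independent of each other.

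In the abundant mRNAs the fitted changes ran from −0.21 to 0.11 on the log2 scale, with standard errors of 0.06 to 0.12. mt-Co1 stood at 0.01 ± 0.07 (SE) and mt-Cytb at −0.02 ± 0.09, with intervals of 2 standard errors from −0.13 to 0.15 and from −0.21 to 0.16. The lowest estimate was −0.21 ± 0.12 for mt-Nd5 (adjusted p = 0.418, edgeR) and the highest 0.11 ± 0.06 for mt-Nd1 (adjusted p = 0.344). mt-Nd2, mt-Nd6 and mt-Nd4 stood at −0.15 ± 0.09, −0.12 ± 0.06 and −0.07 ± 0.09. The interval of each of the 7 genes ended within 0.45 of 0. Single siCLAP libraries moved the lower estimates. mt-Nd5 was −0.38 without siCLAP-3 (adjusted p = 0.0593) and −0.05 without siCLAP-2, and mt-Nd2 was −0.26 without siCLAP-3 (adjusted p = 0.0682) and −0.04 without siCLAP-2. Single libraries turned the sign of mt-Co1, which was −0.07 without siCLAP-3 and −0.03 without siNC-1, and of mt-Cytb and mt-Nd4, which were 0.09 and 0.04 without siCLAP-2.

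**Figure D3:**
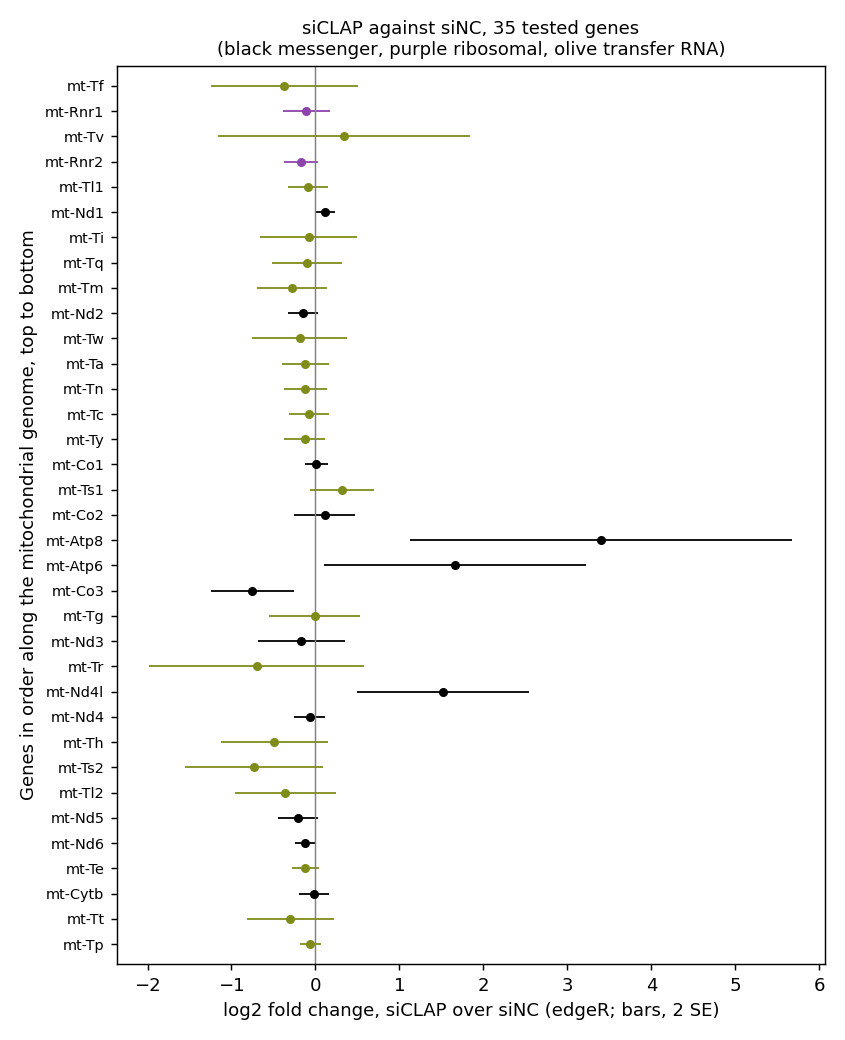
Log2 fold change of siCLAP over siNC (horizontal axis) for the 35 tested genes, in gene order from top to bottom. Points are edgeR estimates and bars are 2 standard errors. The abundant mRNAs lie between −0.21 and 0.11, while mt-Atp8, mt-Atp6 and mt-Nd4l stand at 3.40, 1.66 and 1.52 with wide bars.

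The widest estimates were in low genes of the copied stretch, and those of mt-Atp8 and mt-Atp6 rested on siCLAP-1. mt-Atp8 and mt-Atp6 encode 2 membrane subunits of the ATP synthase. mt-Atp8 had 382, 11.8 and 11.5 TPM in the siCLAP libraries, against 10.1, 19.9 and 6.47 TPM in the siNC libraries. mt-Atp6 had 122, 12.3 and 10.7 TPM in siCLAP, against 11.8, 25.2 and 8.05 TPM in siNC. Only siCLAP-1 was high, and the other siCLAP libraries fell inside the siNC range in both genes. The log2 fold changes were 3.40 ± 1.14 (adjusted p = 0.174, edgeR) and 1.66 ± 0.78 (adjusted p = 0.309), and without siCLAP-1 they were −0.16 and −0.46. In siCLAP-1 the count of mt-Atp8 exceeded what the rate in the other 5 libraries would give by 1137, and that of mt-Atp6 by 1102. These excesses are of like size although mt-Atp6 is 681 bases long and mt-Atp8 204. Their neighbours mt-Co2 and mt-Co3 showed no such rise in siCLAP-1, with 8.01 and 10.02 TPM there.

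mt-Nd4l encodes a small membrane subunit of complex I. It had 4.39, 26.5 and 21.4 TPM in the siCLAP libraries, against 6.11, 5.53 and 6.28 TPM in the siNC libraries. siCLAP-2 and siCLAP-3 were above all siNC libraries and siCLAP-1 below them. The log2 fold change was 1.52 ± 0.51 (adjusted p = 0.172, edgeR), it was 2.03 without siCLAP-1 (adjusted p = 0.0528) and 1.09 without siCLAP-2. Behind it were 19.7, 79.1 and 72.0 expected counts in siCLAP and 24.3, 29.2 and 15.2 in siNC. Gm10222, the pseudogene on chromosome 1 that matches 99.0% of mt-Nd4l without a difference, was the one pseudogene of that stretch with a row in the files. It had 87.3, 38.0 and 116.5 expected counts in siCLAP and 119.0, 125.0 and 52.0 in siNC. siCLAP-2, highest for mt-Nd4l, was lowest for Gm10222, while siCLAP-3 was high in both. With the counts of both rows added, the log2 fold change was 0.35 ± 0.25 (adjusted p = 0.512, edgeR). The copies of mt-Co1 and mt-Co2 on chromosome 2, Gm13340 and Gm13341, had 7.33 to 41.3 and 7.50 to 19.0 expected counts a library.

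mt-Co3, a core subunit of complex IV, was the one member whose groups did not overlap in counts scaled to library size (CPM). Over all genes tested, 21.5% did not overlap, and 10.7% did so while lower in siCLAP. It had 10.02, 6.21 and 9.72 TPM in siCLAP, against 14.7, 10.1 and 21.1 TPM in siNC. The gap was narrow, siCLAP-1 lying just below siNC-2. The log2 fold change was −0.75 ± 0.25 (adjusted p = 0.176, edgeR) and −0.48 without siNC-3. Leptomeningeal markers, of the membranes around the cord and roots, were also highest in siNC-3 and siNC-1. The 5 listed genes summed to 8.24 to 18.6 TPM in siCLAP and 24.9 to 105 TPM in siNC, 4 were tested, 0 passed and 0 of the 5 were at 0 in all libraries. Over all genes tested, 0.293% passed. Of the 4, 3 were lower at an unadjusted p under 0.05, beside 17.0% of all genes tested in either direction, and the median log2 fold change was −1.44. Erythroid markers summed to 9.06 to 25.8 TPM in siCLAP and 10.1 to 56.7 TPM in siNC. Of 4 tested, 0 passed and 1 was lower at an unadjusted p under 0.05, beside 0.293% and 17.0% of all genes tested. Their part in the level of mt-Co3 was not tested.

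The remaining low mRNA genes showed less. mt-Co2, which carries the copper site that first accepts electrons in complex IV, had 8.01, 13.1 and 9.30 TPM in siCLAP, against 9.09, 9.67 and 9.34 TPM in siNC (log2 fold change 0.11 ± 0.18). mt-Nd3, another complex I subunit, had 14.7, 11.95 and 6.94 TPM in siCLAP, against 10.3, 14.2 and 14.1 TPM in siNC (−0.17 ± 0.26). Both groups overlapped in each gene, and the signs turned without siCLAP-2 (−0.10 for mt-Co2) and without siCLAP-3 (0.08 for mt-Nd3).

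**Figure D4:**
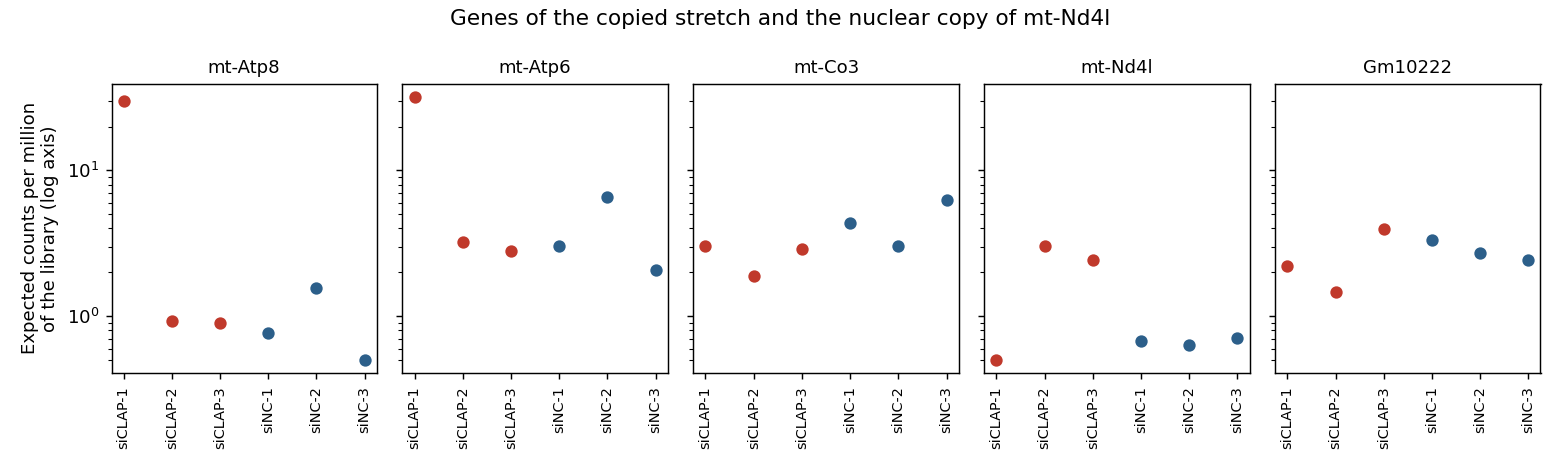
Expected counts scaled to library size (CPM) (logarithmic vertical axis, shared by the panels) for mt-Atp8, mt-Atp6, mt-Co3, mt-Nd4l and the pseudogene Gm10222, with 1 point per library, siCLAP in red and siNC in blue. siCLAP-1 stands apart in mt-Atp8 and mt-Atp6, and siCLAP-2 and siCLAP-3 stand above the rest in mt-Nd4l.

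The rRNA genes mt-Rnr1 and mt-Rnr2 encode the RNAs of the small and large mitochondrial ribosome subunits. mt-Rnr1 had 175, 198 and 148 TPM in siCLAP, against 145, 221 and 200 TPM in siNC. mt-Rnr2 had 127, 99.5 and 104 TPM in siCLAP, against 112, 139 and 127 TPM in siNC. Both were far below the abundant mRNAs per length, and whether libraries were made from RNA selected for poly(A) tails or depleted of rRNA is not given in the sources used here. Groups overlapped in both genes. The log2 fold changes were −0.11 ± 0.14 (adjusted p = 0.739, edgeR) and −0.17 ± 0.10 (adjusted p = 0.407), and that of mt-Rnr1 turned to 0.05 without siNC-2.

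The 22 tRNA genes span 59 to 75 bases and ran from 0 to a mean of 2206 TPM, with a median of 43.1 TPM. The highest were mt-Tp (proline), mt-Te (glutamate) and mt-Tl1 (leucine), and the lowest were mt-Td (aspartate) and mt-Tk (lysine), which flank mt-Co2 inside the copied stretch. These 5 are shown to set the most and least counted tRNA genes side by side.
mt-Tp, chrM:15356-15422, minus strand: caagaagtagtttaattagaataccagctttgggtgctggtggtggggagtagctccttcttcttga
mt-Te, chrM:14071-14139, minus strand: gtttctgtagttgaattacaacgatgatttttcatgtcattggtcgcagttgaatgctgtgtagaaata
mt-Tl1, chrM:2676-2750, plus strand: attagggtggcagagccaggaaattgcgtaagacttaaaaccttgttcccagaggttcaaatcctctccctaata
mt-Td, chrM:6942-7011, plus strand: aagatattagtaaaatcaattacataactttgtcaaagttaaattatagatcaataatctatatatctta
mt-Tk, chrM:7700-7764, plus strand: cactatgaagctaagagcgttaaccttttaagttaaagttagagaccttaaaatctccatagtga

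mt-Tp had 2188, 2066 and 2195 TPM in siCLAP and 2226, 2393 and 2169 TPM in siNC. mt-Te had 1159, 1091 and 1212 TPM in siCLAP, against 1287, 1379 and 1126 TPM in siNC. mt-Tl1 had 1105, 738 and 972 TPM in siCLAP, against 1004, 1097 and 928 TPM in siNC. mt-Tp varied least of all members between libraries (coefficient of variation 4.84%), and the groups overlapped in all 3 genes. Next were mt-Ty (tyrosine) at 241, 215 and 236 TPM in siCLAP against 239.6, 285 and 239.5 TPM in siNC, and mt-Tc (cysteine) at 212, 193 and 201 TPM in siCLAP against 199.96, 239 and 205 TPM in siNC. The groups overlapped in these genes too. Mature tRNAs and longer precursors that hold them cannot be told apart in these counts.

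tRNA levels differed by the strand of the annotated gene and by position. The kit does not mark strand, so reads at a tRNA gene can also come from precursors of the opposite strand. The levels below are therefore not levels of RNA made from each strand. The 8 tRNA genes of the minus strand averaged 53.1 to 2206 TPM, with a median of 188 TPM, and the 14 of the plus strand 0 to 974 TPM, with a median of 18.8 TPM. Outside the copied stretch, the medians were 208 TPM for 7 genes of the minus strand and 20.9 TPM for 10 genes of the plus strand. The ranges overlap, mt-Tl1 being the highest gene of the plus strand. Of the 5 tRNA genes inside the copied stretch, mt-Ts1 (serine) was the highest at a mean of 106 TPM, followed by mt-Tg (glycine) and mt-Tr (arginine). These 5 are placed there by the matched pseudogenes on either side. Their own sequence was not compared with chromosome 1, because only annotated transcripts were searched. mt-Tr lies in the interval whose distance differed. mt-Td had 0 counts in 6 of 6 libraries, where a count of 0 allows up to 2.41 to 5.27 TPM (3 counts, counting error only). mt-Tk had 2.60 expected counts in siCLAP-1 and 0 in the other 5 libraries, all at or under that floor.

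Of 20 tested tRNA genes, 0 passed edgeR's test, 0 had an unadjusted p under 0.05 and 0 had groups that did not overlap, beside 0.293%, 17.0% and 21.5% of all genes tested. Estimates ran from −0.73 for mt-Ts2, which had 4.44 to 13.2 expected counts a library, to 0.34 for mt-Tv, which had 0.750 to 3.92. The most abundant were better determined, with mt-Tp at −0.06 ± 0.06 and mt-Te at −0.12 ± 0.08. mt-Ty, mt-Tl1 and mt-Tc stood at −0.13 ± 0.12, −0.09 ± 0.12 and −0.08 ± 0.12, and mt-Ts1 at 0.32 ± 0.19 (adjusted p = 0.403). The sign of mt-Tl1 turned without siCLAP-2 (0.05) and that of mt-Tc without siNC-2 (0.03).

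Nuclear genes with a part in mitochondrial gene expression were listed under 51 names. Most copy, transcribe, process or modify mitochondrial nucleic acids, while Nrf1, Gabpa, Ppargc1a, Ppargc1b and Esrra regulate nuclear genes. The files hold 49 of the 51, all tested, of which 0 rose, 0 fell and 49 did not pass, beside 0.293% of all genes tested. Their median log2 fold change was 0.01, beside −0.00 over all genes tested. At an unadjusted p under 0.05 there were 6, or 12.2%, all with positive estimates, beside 17.0% of all genes tested. The 6, named for having the smallest p, were Grsf1, an RNA-binding protein of mitochondrial RNA granules, at 0.12 ± 0.05 (adjusted p = 0.210, edgeR), Mtpap, the mitochondrial poly(A) polymerase, at 0.22 ± 0.08, and Pnpt1, an RNA-degrading enzyme, at 0.16 ± 0.06. The others were Tfb2m, a transcription factor that opens mitochondrial promoters, at 0.16 ± 0.06, Trnt1, which adds the CCA end to tRNAs, at 0.12 ± 0.05, and Ptcd2, a pentatricopeptide repeat protein, at 0.13 ± 0.06. Mtpap had 18.6, 18.4 and 17.2 TPM in siCLAP, against 15.1, 17.1 and 14.9 TPM in siNC. Grsf1 had 144, 142 and 140 TPM in siCLAP, against 132, 136 and 127 TPM in siNC. In counts scaled to library size (CPM), groups did not overlap in 7 of the 49 genes (14.3%), beside 21.5% of all genes tested. They were higher in siCLAP for Grsf1, Mtpap, Tfb2m, Trnt1, Ptcd2 and Tbrg4, and lower for Polg, the catalytic subunit of the mitochondrial DNA polymerase. Which genes separated depended on the unit. In TPM the groups of Tfb2m and Tbrg4 overlapped narrowly, and those of Angel2 and Tefm, which overlapped in CPM, did not overlap.

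The libraries held 25982046 to 39239131 expected counts each in siCLAP and 21386768 to 46317735 in siNC. All 10 sensory neuron markers were present, averaging 127 to 4055 TPM, and 0 of them passed edgeR's test. At an unadjusted p under 0.05 there were 6 higher and 1 lower, beside 17.0% of all genes tested, and 9 of the 10 estimates were positive. They summed to 21645 to 22509 TPM in siCLAP and 20544 to 21646 TPM in siNC, so the ranges just touched. Satellite glia markers summed to 4322 to 4786 TPM in siCLAP and 3999 to 4376 TPM in siNC. Ednrb, an endothelin receptor, rose by 0.45 ± 0.07 on the log2 scale (adjusted p = 0.0317, edgeR) while the other 5 did not pass, beside 0.293% of all genes tested. Of these 6 markers, 3 were higher and 0 lower at an unadjusted p under 0.05, beside 17.0% of all genes tested, and 5 estimates were positive. Myelinating Schwann cell markers summed to 3228 to 3530 TPM in siCLAP and 3238 to 4305 TPM in siNC. Egr2, a transcription factor of myelination, fell by 0.76 ± 0.13 (adjusted p = 0.0389, edgeR) while the other 5 did not pass, beside 0.293% of all genes tested. All 6 estimates were negative, with 3 lower at an unadjusted p under 0.05, beside 17.0% of all genes tested. The calls of Ednrb and Egr2 were both lost in 7 of 15 alternatives, namely limma at each pseudocount and without siCLAP-1, siCLAP-2, siNC-1 or siNC-3. Adjusted p ran from 3.33e-07 to 0.192 for Ednrb and from 3.70e-06 to 0.225 for Egr2 over those 15. Skeletal muscle markers, of a tissue rich in mitochondria, summed to 2.73 to 7.40 TPM in siCLAP and 3.04 to 4.25 TPM in siNC. The part of cell makeup in the mitochondrial levels was not tested.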

How the data were processed

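The authors made bulk RNA-seq libraries from DRG total RNA with the NEBNext Ultra RNA kit, which does not mark strand, per the labels' protocols. The submitters' processing notes list the mm10 build, HISAT2 2.1.0, featureCounts 1.6.2 and FastQC 0.11.8. Neither the annotation nor how strand and reads matching several places were handled is given in the sources used here. Each deposited file lists 48401 symbols with TPM and expected counts. Fractional values occur among the expected counts as deposited: 8.1% of the 210 member counts above 0 were whole within 1e-06, against 39.4% of the 160457 counts above 0 over all rows.

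The expected counts were rounded and tested under R 4.3.3 with the quasi-likelihood test of edgeR 4.0.16, TMM normalization, no covariate, the 19141 genes averaging 1 TPM or more and Benjamini-Hochberg adjustment, calling genes at an adjusted p under 0.05. Each standard error is the log2 fold change over the root of its F statistic. Alternatives were DESeq2 1.42.0, limma 3.58.1 on log2(TPM + 0.5), other pseudocounts, filters and size factors, leaving out each library, and a block for the replicate number. Class shares were described and not tested. The smallest p an exact permutation test could give for 1 gene, at 3 libraries a group, is 0.1. Libraries of a group differed by more than counting noise (mean chi-square per gene 4.11 to 9.14), so none was a repeat deposit. TMM factors were 0.995 to 1.01. Genes counted as having groups that did not overlap were judged on CPM scaled with these factors, not on TPM. In counts simulated for the 19141 genes of this comparison, 44%, 78%, 100% and 100% of 50 genes changed by 1.25, 1.5, 2 and 3-fold were recovered, and 20 of 18941 unchanged genes were called. No rate is available by expression level, so these cannot be carried over to members with few counts or wide spread between libraries. Estimates of 10.6-fold for mt-Atp8, 3.16-fold for mt-Atp6 and 2.87-fold for mt-Nd4l did not pass edgeR's test on the 19141 genes.

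Nuclear copies were found with blastn 2.17.0 among GENCODE M21 transcripts, at 95% identity or more over at least 30 bases. Only annotated transcripts were searched. Sequences are those of GENCODE M21 transcripts on GRCm38. Values in every library are given for the mRNA and rRNA genes and the 5 highest tRNA genes, and the 6 machinery genes with the smallest p are named. Of that list, Twnk was not analysed here, nor were the other 6 pseudogenes of the chromosome 1 copy. Prorp is another name for 1110008L16Rik, also on that list, and the gene was tested under the latter name only. The members and lists were chosen with earlier results of these data known. mt-Ts1, mt-Ts2, mt-Tv, mt-Tg, mt-Tr, Ednrb, Egr2, Polg, Tbrg4, Angel2 and Tefm were named after their values were seen. Further checks were added then too: values of the low mRNA genes without siCLAP-1, and the calls of Ednrb and Egr2 under each alternative. Limits set from counts of 0 cover counting error only.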

Additional observations from a re-analysis of the deposited data

How the results depend on the processing

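Of 365 values of 26 named genes under alternatives, 341 kept their direction and their side of the threshold, 15 turned in sign and 4 passed only with no filter. The other 5 (mt-Co2, mt-Atp8, mt-Atp6, mt-Nd3 and mt-Nd4l in DESeq2) kept their direction but have no adjusted p there. mt-Co1 was −0.011 with limma at each of the 3 pseudocounts. With one library left out, log2 fold changes that turned in sign ran from −0.071 to 0.087 for mt-Co1, −0.104 to 0.255 for mt-Co2, −0.163 to 4.028 for mt-Atp8, −0.458 to 2.319 for mt-Atp6, −0.452 to 0.083 for mt-Nd3, −0.184 to 0.041 for mt-Nd4, −0.153 to 0.087 for mt-Cytb, −0.270 to 0.045 for mt-Rnr1, −0.234 to 0.054 for mt-Tl1 and −0.134 to 0.028 for mt-Tc. The count of mitochondrial genes called was 0, and it was 4 with no filter and 0 to 0 with one library left out. Over all genes the count was 56 in edgeR's test (14 higher, 42 lower), 611 in DESeq2, 835 with no filter, 118 at a mean TPM of at least 5, and 0 in limma at each of the 3 pseudocounts, which had 3028, 3017 and 3040 at an unadjusted p under 0.05. Leaving out one library gave 0 to 340 calls, the lowest (0) without siCLAP-1, 4 without siNC-3, the highest (340) without siCLAP-3 and 157 without siNC-2. With the replicate number as a block the count over all genes was 203 and that of mitochondrial genes 0. Same-numbered libraries correlated at 0.125, 0.026 and −0.065, and not every library correlated best with its own number, so they are taken to share only a number. With one library left out, differences in share ran from −0.118 to 0.0623 percentage points for all mitochondrial genes, −0.117 to 0.0641 for mRNA, −0.00261 to −0.000255 for rRNA and −0.00130 to −0.000296 for tRNA. As a share of TPM the tRNA difference was −0.0418 percentage points, larger than its pooled SD of 0.0381. Except where the construction shows it (fewer libraries, more genes tested, TPM in place of counts), the cause was not tested. Genes with few counts, such as mt-Tv, cannot show small differences at this depth.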
